A study of Mus musculus with 4 samples.

Results

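The genes described here are 10 oxygen-dependent demethylases of histones and DNA, namely Kdm2b, Kdm3a, Kdm4a, Kdm4b, Kdm4c, Kdm5a, Kdm6b, Tet1, Tet2 and Tet3. Their members in the data are the ATAC-seq peaks that overlap the span from 5 kb before to 5 kb past each gene in the GENCODE M21 annotation, which gave 60 of the 128055 peaks of the table. Of these, 13 were promoter peaks, meaning that they lay within 1 kb of the start of a protein-coding transcript of the gene, and 47 lay outside promoters (41 in the gene body and 6 in the flanks). The peaks were taken by position alone, but the genes were chosen with earlier results of these data known. All 60 peaks had been assigned to both oxygen conditions by the peak caller. The share of all peaks with that assignment was not computed, so this is not a trait particular to these genes.

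Histone demethylases of the Jumonji C (JmjC) family and the TET enzymes are dioxygenases. They use iron, 2-oxoglutarate and molecular oxygen to hydroxylate their substrate, so oxygen is a co-substrate of the reaction that they catalyse. JmjC enzymes remove methyl groups from histone lysines, whereas TET enzymes oxidise 5-methylcytosine in DNA as the first step of its removal. ATAC-seq reports how open the chromatin at these genes is, and neither the amount nor the activity of the enzymes.

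The data come from mesenchymal stem cells (MSCs) kept at low or at atmospheric oxygen. They were taken from the bone of wild-type C57BL6/N mice aged 3 to 5 months, with 2 libraries from hypoxia-cultured cells (2% O2) and 2 from normoxia-cultured cells (21% O2). The labels place the purification of MSCs by flow cytometry on day 12 of culture, and each library was made from 50000 cells. By the study's methods, the sort kept cells negative for the blood markers CD45 and Ter-119 and positive for Sca-1 and CD140a, and all cells began their culture in hypoxia before part of them was moved to normoxia. The study describes its libraries as biologically independent experiments, but the labels do not say that they came from separate animals, so p-values measure only the spread between these libraries.

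Library totals ranged from 26680936 to 29965523 reads, but nuclear peaks held 49.2% and 53.2% of the reads in hypoxia against 31.0% and 35.2% in normoxia, and mitochondrial peaks held 7.77% and 9.13% against 1.50% and 2.34%. These shares moved with the oxygen groups, and their part in the results below was not tested. In such bulk libraries fewer cells of a type and less open chromatin per cell cannot be told apart. All 7 MSC and sort markers had a promoter peak. Their summed promoter signal as deposited was 1318 to 1360 in hypoxia and 723 to 822 in normoxia. After scaling, their 11 promoter peaks had a median log2 fold change of -0.31, against -0.27 for all promoter peaks. limma called 2 of the 11 lower, where it called 16.7% of all promoter peaks lower. Ptprc, which encodes the blood marker CD45, had none, but the macrophage genes Csf1r and Adgre1 had one. Csf1r held 94.5 and 103 in hypoxia against 73.1 and 71.4 in normoxia. Its log2 fold change was -0.45 as deposited and 0.03 after scaling (FDR 0.922 in limma). Adgre1 held at most 3.40 in any library (-0.23 as deposited, 0.13 after scaling, FDR 0.883 in limma). Of the endothelial markers Pecam1 and Cdh5, Cdh5 had none and the 2 Pecam1 peaks were weak (summed signal 13.1 to 20.1).

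Signal is given throughout as reads per 10000000 library reads in the whole peak, as deposited. A fold change compares normoxia with hypoxia (above 0 where normoxia is higher) on the log2(signal + 1) scale after scaling the libraries by relative log expression (RLE) factors, which places the median of all peaks near 0, and a peak was called at a false discovery rate (FDR) under 0.01 in limma. Without that scaling the median of all peaks was -0.44.

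Which start of a gene was open differed from the first annotated start at several genes. Kdm4c, which removes methyl groups from lysine 9 of histone H3, had no peak at its first annotated start, from which the nearest lay 8304 bp away, and its promoter peak covered a start 9439 bp further into the gene. At Kdm2b, whose product binds unmethylated CpG islands through a zinc finger, starts were open in 3 separate promoter peaks. The peak over the internal start from which the short form without the JmjC domain is made held 38.9 reads per kb of peak. The other 2 peaks held 12.1 and 9.53, and the one in the middle covers only a start that is absent from the basic GENCODE set. At Tet1 the only open starts lay 21484 and 21672 bp from the first annotated one (also absent from that set), and at Tet3 the internal start held 28.6 per kb against 17.7 near the start of the gene. Per kb of peak, the mean promoter signal over the 4 libraries was 97.1 at Kdm4a, 89.3 at Kdm4b, 68.9 at Kdm4c and 68.0 at Kdm3a, above the other promoter peaks. Kdm4a and Kdm4b overlapped in their normoxia libraries, as did Kdm4c and Kdm3a, so neither pair could be ranked. Kdm5a (39.2), the internal Kdm2b start (38.9) and Kdm6b (38.6) could not be ranked, since their libraries overlapped in the values behind these means.

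Promoter windows of RefSeq transcripts (build GRCm38.p6, 250 bases before to 50 bases past the start) were found for 7 of the 10 genes. Kdm4b, Kdm5a and Kdm6b had none. The 250 bases before 6 of these starts are given 5′ to 3′ on the strand of the gene, with capitals for the core motif of hypoxia-inducible factors, ACGTG or GCGTG on either strand. Where CACGTG occurs, it reads as ACGTG on both strands and counts as 2 overlapping matches. The pairs at Kdm4c and Kdm2b contrast a start with a weak peak or none with a strong one, Kdm3a is shown as a gene known to be induced in hypoxia, and Tet2 because its promoter peak was called.
Kdm4c, first start, no peak (plus strand, chr4:74242247-74242496): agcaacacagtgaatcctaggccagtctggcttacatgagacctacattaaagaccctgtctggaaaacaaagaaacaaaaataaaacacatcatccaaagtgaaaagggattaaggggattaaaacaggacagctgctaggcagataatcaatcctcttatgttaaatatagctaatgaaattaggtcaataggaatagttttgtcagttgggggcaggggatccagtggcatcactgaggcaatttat
Kdm4c, open start (plus strand, chr4:74251629-74251878): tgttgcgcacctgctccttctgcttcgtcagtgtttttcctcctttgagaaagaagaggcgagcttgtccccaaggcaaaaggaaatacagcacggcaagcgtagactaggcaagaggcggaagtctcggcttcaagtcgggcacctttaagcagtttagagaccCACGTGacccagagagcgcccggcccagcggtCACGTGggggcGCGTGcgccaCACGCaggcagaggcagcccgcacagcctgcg
Kdm2b, upstream start (minus strand, chr5:122989100-122989349): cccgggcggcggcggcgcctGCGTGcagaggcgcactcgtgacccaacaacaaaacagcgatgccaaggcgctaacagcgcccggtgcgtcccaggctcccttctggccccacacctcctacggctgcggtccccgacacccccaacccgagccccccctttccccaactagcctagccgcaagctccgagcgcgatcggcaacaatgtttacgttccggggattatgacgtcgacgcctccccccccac
Kdm2b, internal start (minus strand, chr5:122900351-122900600): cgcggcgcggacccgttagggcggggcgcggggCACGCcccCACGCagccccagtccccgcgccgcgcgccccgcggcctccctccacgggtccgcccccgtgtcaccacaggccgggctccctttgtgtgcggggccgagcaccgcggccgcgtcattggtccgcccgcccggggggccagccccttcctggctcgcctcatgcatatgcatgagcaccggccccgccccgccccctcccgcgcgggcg
Kdm3a (minus strand, chr6:71632918-71633167): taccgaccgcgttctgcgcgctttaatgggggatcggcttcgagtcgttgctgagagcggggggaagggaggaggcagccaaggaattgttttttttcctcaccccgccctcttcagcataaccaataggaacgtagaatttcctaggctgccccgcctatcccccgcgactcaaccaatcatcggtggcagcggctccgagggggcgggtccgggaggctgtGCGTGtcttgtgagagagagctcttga
Tet2 (minus strand, chr3:133544391-133544640): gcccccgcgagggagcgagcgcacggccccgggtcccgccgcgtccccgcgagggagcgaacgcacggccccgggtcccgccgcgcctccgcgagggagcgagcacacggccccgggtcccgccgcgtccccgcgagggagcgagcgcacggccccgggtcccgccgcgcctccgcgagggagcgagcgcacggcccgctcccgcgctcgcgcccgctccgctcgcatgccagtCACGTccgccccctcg

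The motif was present in 7 of the 13 windows of these genes, at Kdm2b, Kdm3a, Kdm4c and Tet2, and in 44.0% of 32544 windows of 300 bases over all genes. The open Kdm4c start held 6 matches, a number reached by 0.698% of all windows, and the first annotated start, without a peak, held 0. A match describes the letters only. The promoter peaks of the 10 genes were CpG-rich, with a median GC content of 55.3% and a CpG observed over expected ratio of 0.67, against 52.0% and 0.49 over all 17670 promoter peaks. They were also wider (median 2900 against 2200 bp) and stronger (median signal 172 against 62.6), and 9 of the 13 lay in the strongest decile of all peaks.

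All 13 promoter peaks had a lower signal in both normoxia libraries than in both hypoxia libraries. So did 86.0% of all promoter peaks of the table and 99.6% of those in the strongest decile. After scaling, 3 of the 13 were called lower in normoxia (Kdm4c, Tet2 and Kdm5a) and 0 higher, where limma called 16.7% of all promoter peaks lower and 0.441% higher, and 34.4% of promoter peaks in the strongest decile lower. At an unadjusted p under 0.05, 10 of the 13 were lower and 0 higher, where 44.1% and 3.88% of all promoter peaks were. Of the 7094 promoter peaks in the strongest decile, 5167 were lower and 36 higher at that level. edgeR with RLE factors called 4 of the 13 lower (the same 3 and Kdm4a) and 0 higher, against 19.95% and 0.713% of all promoter peaks. In limma at an FDR under 0.01, the 3 called peaks were all among the 9 in the strongest decile. So few calls allow no comparison of their share with those of the table. The median log2 fold change of the 13 peaks was -0.33, against -0.27 for all promoter peaks and -0.37 for those in the strongest decile.

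**Figure D1:**
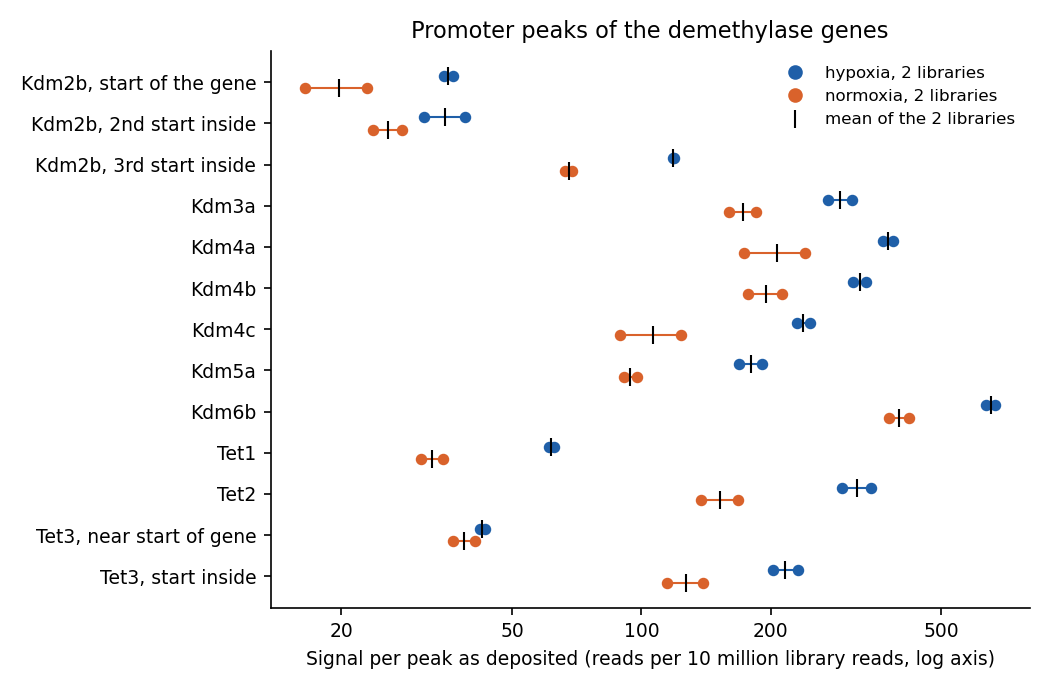
Signal of the 13 promoter peaks as deposited (reads per 10000000 library reads, log axis) in 2 hypoxia and 2 normoxia libraries, with a line joining the 2 libraries of a group and a tick at their mean. The normoxia libraries lie below the hypoxia libraries in every peak, with the smallest gap at the Tet3 peak near the start of the gene.

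Of the Kdm4 genes, whose products act on methylated lysine 9 and lysine 36 of histone H3, Kdm4c changed most. Its promoter peak (chr4:74250801-74253300) held 247 and 229.8 in hypoxia against 89.2 and 123 in normoxia, a mean of 238 ± 12.1 against 106 ± 24.2 (SD, n = 2 each). The groups lay far apart, with a log2 fold change of -0.70 ± 0.12 (SE) and an FDR of 0.000286 in limma. Kdm4a, at chr4:118178201-118181200, had the highest mean signal of the Kdm4 promoters, with 365 and 386 in hypoxia against 174 and 241 in normoxia. The normoxia libraries did not overlap those of hypoxia but differed widely from each other. The change of -0.40 ± 0.11 fell just outside the threshold at an FDR of 0.0115 in limma. The peak was called in edgeR with RLE factors (FDR 0.00837), and in limma with replicate number as a block (0.00346) or a minimum mean signal of 5 (0.00467). It was not called in edgeR with TMM factors (0.0134), nor in limma under equal totals (0.422), quantile normalization (0.906) or cyclic loess (0.900). Kdm4b, at chr17:56324501-56327400, held 311 and 334 against 177 and 213, which gave -0.25 ± 0.10 and an FDR of 0.0916.

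Kdm5a removes methyl groups from lysine 4 of histone H3, a mark of active promoters. Its promoter peak (chr6:120362801-120366300) held 169 and 191 in hypoxia against 91.1 and 97.4 in normoxia. The groups did not overlap, and the peak was called lower in normoxia just inside the threshold (-0.45 ± 0.12, FDR 0.00976 in limma). The same peak covers the start of Ccdc77, which is transcribed away from Kdm5a, so its signal cannot be told apart between the 2 genes. Kdm6b, an eraser of the repressive mark on lysine 27 of histone H3, had a promoter peak 13600 bp wide (chr11:69408201-69421800), with 634 and 667 against 377 and 420.1. It was not called (-0.23 ± 0.09, FDR 0.0630).

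Kdm3a, which acts on lysine 9 of histone H3, held 271 and 309 in its promoter peak (chr6:71630501-71633900) in hypoxia against 159.7 and 185 in normoxia. The fold change of -0.27 ± 0.10 lay at the median of all promoter peaks to 2 decimals and was not called (FDR 0.0713). The internal Kdm2b start (chr5:122898801-122901200) held 119 and 118 against 66.3 and 69.1, with a change of -0.33 ± 0.13 and an FDR of 0.0863. The peak at the start of the Kdm2b gene (chr5:122987301-122990200) held 34.7 and 36.4 against 16.5 and 23.0 (-0.37 ± 0.20, FDR 0.213). The peak between them (chr5:122950301-122952800) held 31.1 and 38.8 against 27.7 and 23.7 (0.04 ± 0.19, FDR 0.920), and none of the 3 was called.

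Among the TET genes, Tet2, the enzyme best known from blood stem cells, was called lower in normoxia. Its promoter peak (chr3:133539501-133546000) held 293 and 343 in hypoxia against 138 and 168 in normoxia, a mean of 318 ± 35.4 against 153 ± 20.9 (SD, n = 2 each). This gave a log2 fold change of -0.58 ± 0.11 and an FDR of 0.000424 in limma. Tet1, best known from embryonic stem cells, held 60.9 and 62.6 against 34.5 and 30.7 at chr10:62885801-62887700, with a change of similar size but a wider error (-0.43 ± 0.16, FDR 0.0705). Tet3, which is known for its role in the zygote, had promoter peaks that differed in sign after scaling. The internal start (chr6:83438501-83444500) held 202 and 231 against 115 and 139 (-0.30 ± 0.11, FDR 0.0733). The peak near the start of the gene (chr6:83455201-83457500) held 42.1 and 43.2 against 36.4 and 41.0 (0.33 ± 0.17, FDR 0.186), and neither was called.

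The 3 promoter calls depended on how the libraries were scaled. As deposited, 11 of the 13 promoter peaks were called lower, whereas under equal totals over all peaks, quantile normalization and cyclic loess 0 of 13 were called in either direction in limma. Of all promoter peaks, 60.6% were called lower as deposited, 2.30% under equal totals, 1.18% under quantile normalization and 2.05% under cyclic loess. At an unadjusted p under 0.05, 2 were lower and 1 higher under equal totals, 3 and 2 under quantile normalization, and 2 and 2 under cyclic loess. The median of all peaks moved with these scalings, from -0.44 as deposited to 0.26 under equal totals. Kdm4c, Tet2 and Kdm5a kept a negative fold change in all 5 scalings, from -0.37 to -1.18 at Kdm4c, -0.20 to -1.06 at Tet2 and -0.14 to -0.92 at Kdm5a. Of these 3, Kdm4c came closest to the threshold, with an FDR of 0.0108 under equal totals, 0.0477 under quantile normalization and 0.0294 under cyclic loess. For Kdm3a, Kdm4b and Kdm6b the fold change was above 0 under all of these last 3 scalings, most at Kdm6b under cyclic loess (0.28, FDR 0.0107).

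**Figure D2:**
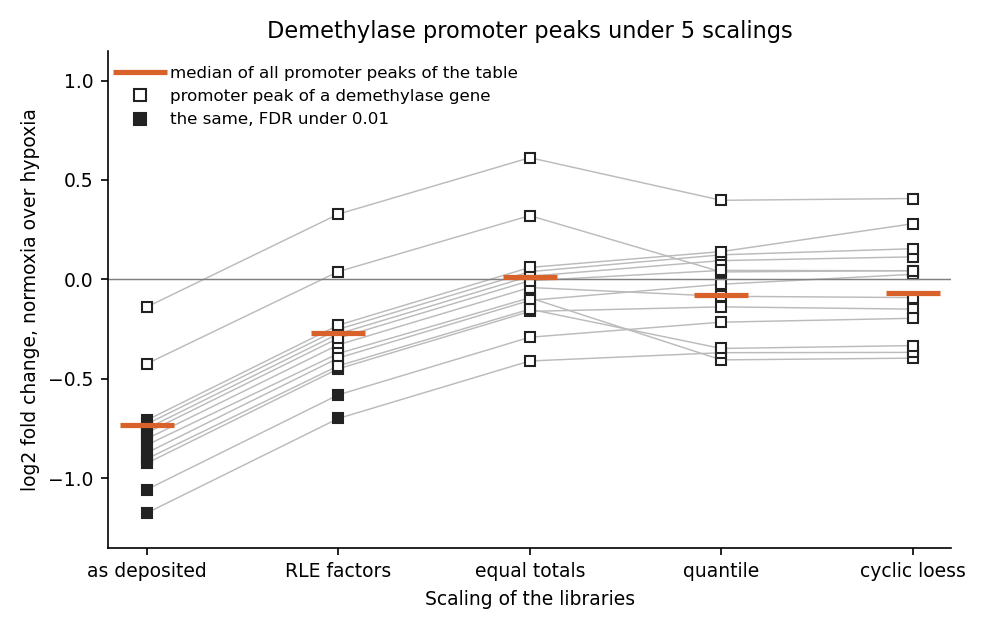
Log2 fold change (normoxia over hypoxia) of the 13 demethylase promoter peaks under 5 scalings of the libraries, with a line for each peak, filled squares for an FDR under 0.01 and a bar for the median of all promoter peaks. The median of the 13 peaks goes from -0.80 as deposited to 0.026 under cyclic loess, with Kdm4c and Tet2 the lowest under RLE factors.

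Leaving out either hypoxia library removed every call in the table, also those at the demethylases, although 24119 (without hypoxia replicate 1) and 24294 peaks (without hypoxia replicate 2) had an unadjusted p under 0.05 in limma. Moderation without trend and robust estimation likewise left 0 calls in the table, with 29293 peaks at an unadjusted p under 0.05, and with a pseudocount of 0.1 Kdm5a was no longer called (FDR 0.0140). Without normoxia replicate 1, Kdm4c, Tet2 and Kdm5a were still called, and without normoxia replicate 2 Kdm4a joined them. The fold change at Kdm4c ranged from -0.86 to -0.53 when each library was left out in turn, and that at Tet2 from -0.65 to -0.50.

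Outside promoters the 47 peaks were weaker, with a median signal of 11.9, and they moved in both directions. The median log2 fold change was 0.12, against 0.05 for all 110385 other peaks of the table. As deposited, 27 of the 47 were lower in both normoxia libraries, as were 55.3% of all other peaks, and 7 were higher in both, as were 7.78%. limma called 1 lower and 2 higher, where it called 2.64% and 1.98% of all other peaks. Over promoters and other peaks together, 4 of 60 were lower and 2 higher, against 4.57% and 1.77% of all peaks. With 3 called peaks outside promoters, these shares allow no comparison of the genes with the table. At an unadjusted p under 0.05, 4 of the 47 were lower and 9 higher, where 12.5% and 13.9% of all other peaks were. edgeR called 1 lower and 4 higher, against 3.42% and 2.84% of all other peaks.

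The peak called lower lay at the 3′ end of Kdm4a (chr4:118138701-118141900), where it overlaps an exon, with its centre 39742 bp from the start of the gene. It held 81.7 and 76.2 in hypoxia against 34.9 and 38.4 in normoxia, a mean of 78.9 ± 3.95 against 36.6 ± 2.49 (SD, n = 2 each). The change was -0.62 ± 0.15 with an FDR of 0.00625 in limma. That of the Kdm4a promoter was -0.40 ± 0.11, and the difference between the 2 peaks was not tested. The call was lost under equal totals (FDR 0.115), quantile normalization (0.0514) and cyclic loess (0.0461) and without normoxia replicate 1 (0.0148). The strongest peak outside the Kdm4a promoter, 3′ of the gene at chr4:118131001-118136200, covers the start of its neighbour St3gal3. It held 209 and 217 against 111 and 126 (-0.37 ± 0.11, FDR 0.0251).

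Kdm4b had the most peaks of the 10 genes, 14 in all, of which 12 lay in the gene body and 1 past its end. A peak inside an intron (chr17:56339901-56342000), its centre 14888 bp from the start of the gene, was called higher in normoxia. It held 13.8 and 12.9 in hypoxia against 21.7 and 20.4 in normoxia, a mean of 13.4 ± 0.623 against 21.0 ± 0.977 (SD, n = 2 each), so the groups did not overlap even before scaling. The change was 1.07 ± 0.23 with an FDR of 0.00223 in limma. It stayed above 0 in all 5 scalings, with an FDR of 0.0456 as deposited, 0.0163 under quantile normalization, 0.0104 under cyclic loess and 0.000351 under equal totals, and of 0.0272 without normoxia replicate 1. A second intron peak (chr17:56378801-56381600) held 25.1 and 24.8 against 31.1 and 28.7 and lay just outside the threshold (0.71 ± 0.20, FDR 0.0127). The strongest peak of Kdm4b outside its promoter lay past the 3′ end (chr17:56403101-56410100), with 65.1 and 58.1 against 59.6 and 68.1. Its libraries overlapped as deposited, and its change of 0.52 ± 0.15 was not called under RLE factors (FDR 0.0161) but was called under equal totals, quantile normalization and cyclic loess. Of the 13 Kdm4b peaks outside the promoter, 11 had a fold change above 0, as had 59718 of all 110385 other peaks. Their median was 0.43 after scaling and -0.009 as deposited, against 0.05 and -0.39 for all other peaks. The Kdm4b promoter itself was at -0.25 after scaling.

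Tet1 held the other peak called higher, inside an intron (chr10:62854901-62855600) with its centre 53746 bp from the first annotated start. It held 7.08 and 5.44 in hypoxia against 10.9 and 11.3 in normoxia, with a change of 1.17 ± 0.31 and an FDR of 0.00907 in limma. This peak is weak, and the call was lost when any of the 4 libraries was left out (FDR from 0.0263 to 0.189), as it was as deposited (0.0576), under quantile normalization (0.0510) and under cyclic loess (0.0533). The strongest intron peak of Tet1 (chr10:62850701-62851900), only a few kb away, went the other way, with 59.8 and 76.5 against 36.7 and 41.0 (-0.32 ± 0.16, FDR 0.174).

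At the remaining genes the strongest peak outside promoters was not called. Tet2 had 4 of its 5 such peaks below 0, as were 50639 of all 110385 other peaks. The strongest of Tet2, in an intron at chr3:133520501-133521500, held 17.7 and 21.8 against 11.2 and 8.34 (-0.50 ± 0.26, FDR 0.193). Tet3 had a strong intron peak (chr6:83412001-83415200) with 114 and 104 against 73.8 and 76.8, and a fold change near 0 (-0.05 ± 0.13, FDR 0.850). At Kdm4c all 5 peaks outside the promoter were above 0 after scaling, as were 59718 of all 110385 other peaks. Their median was 0.43 after scaling and -0.004 as deposited. The strongest of Kdm4c, at chr4:74388401-74389400, held 15.2 and 16.7 against 16.9 and 23.4 (0.75 ± 0.23, FDR 0.0241).

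At Kdm6b the strongest peak outside the promoter (chr11:69394301-69400100) also covers the start of the neighbouring gene Cyb5d1 and held 145 and 149 against 91.8 and 92.4 (-0.20 ± 0.12, FDR 0.301). The strongest such peak of Kdm2b lay before the gene (chr5:122993901-122995200), with 28.3 and 41.5 against 18.7 and 22.4 (-0.26 ± 0.20, FDR 0.425). Kdm3a and Kdm5a had weak peaks only outside their promoters. The strongest of Kdm3a (chr6:71596001-71596800) held 7.79 and 12.6 against 6.75 and 6.34 (-0.11 ± 0.31, FDR 0.858), and the single one of Kdm5a (chr6:120395701-120396300) held 4.95 and 5.10 against 6.75 and 5.67 (0.66 ± 0.35, FDR 0.208).

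**Figure D3:**
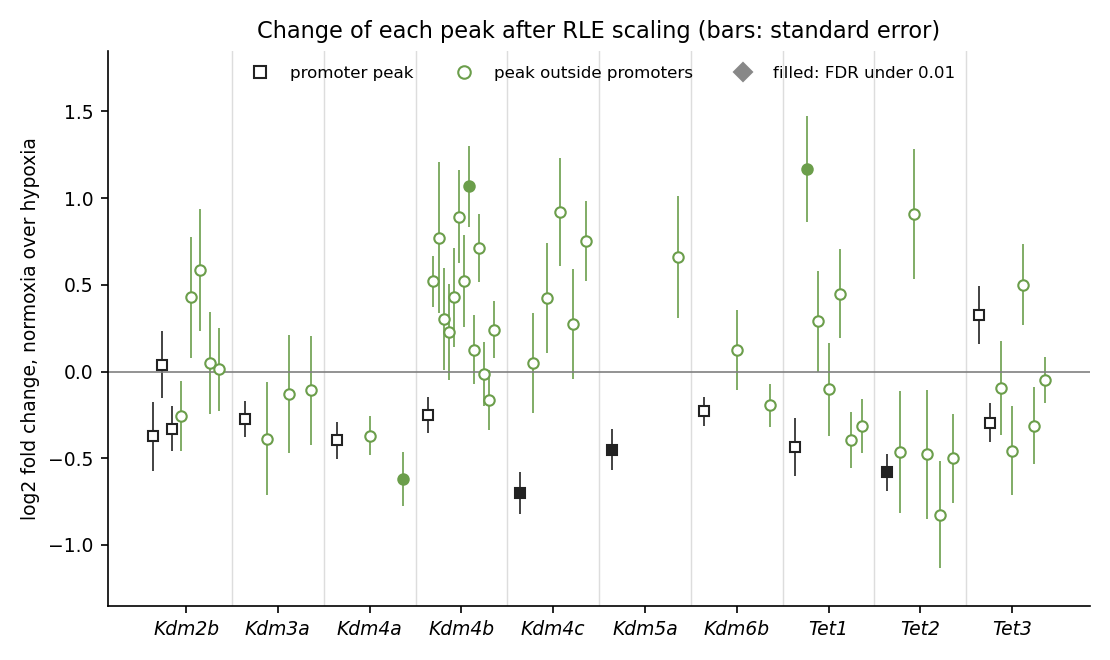
Log2 fold change (normoxia over hypoxia, bars give the standard error) of all 60 peaks by gene, with squares for promoter peaks, circles for peaks outside promoters and filled symbols for an FDR under 0.01. The 6 filled symbols are the promoters of Kdm4c, Kdm5a and Tet2 and the 3′ peak of Kdm4a below 0, and intron peaks of Kdm4b and Tet1 above 0.

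Over the whole table the fold change varied with the strength of a peak, though not in 1 direction. The median was -0.48 in decile 1 by mean signal (the weakest peaks), 0.15 in decile 2 and 0.24 in decile 3, and fell from there to -0.33 in decile 10. Most promoter peaks of the demethylases lie at the strong end. Of those in decile 10, Kdm4c, Tet2, Kdm5a, Kdm4a and, by a small margin, the internal Kdm2b start lie below its median, and the others lie above it. The called intron peaks of Kdm4b and Tet1 lie above the medians of all deciles. The part of this trend in the difference between promoters and other peaks was not tested.

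**Figure D4:**
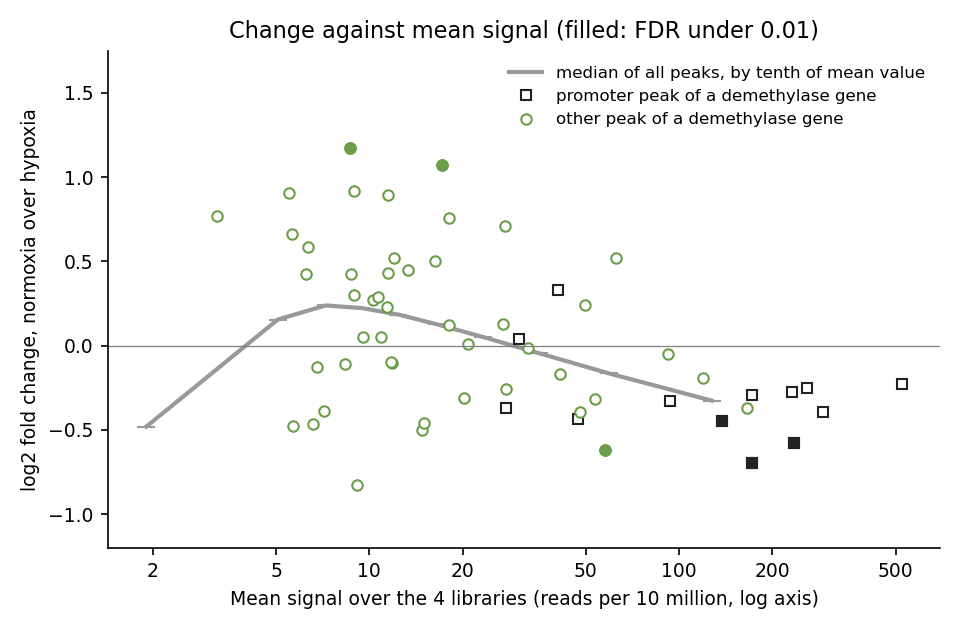
Log2 fold change (normoxia over hypoxia) of the 60 demethylase peaks against their mean signal over the 4 libraries (reads per 10000000, log axis), with the median of all 128055 peaks in each decile of mean signal as a grey line. Strong peaks lie lower along with the grey line, which reaches -0.33 in the last decile.

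A ratio of reads within a library needs no scaling between libraries. For each gene the reads in peaks outside promoters were divided by those in its promoter peaks. Over 12373 genes with at least 20 promoter reads and 5 other reads in each library, 55.4% had a higher ratio in both normoxia libraries and 11.2% a lower one, and the median log2 change was 0.26. Of the 10 demethylases, 5 had a higher ratio in both normoxia libraries (Kdm2b, Kdm4b, Kdm4c, Kdm5a and Tet1) and 0 a lower one, with a median change of 0.22.

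Kdm4c went from 0.198 and 0.272 in hypoxia to 0.571 and 0.527 in normoxia, a 2.37-fold higher ratio. Kdm4b went from 1.10 and 0.951 to 1.70 and 1.44, or 1.53-fold. The ratio of Kdm5a went from 0.0294 and 0.0266 to 0.0741 and 0.0582, or 2.35-fold, but rests on a single weak peak with as few as 14 reads in a library. Tet1 held more reads outside its promoter than in it in all 4 libraries, at 2.80 and 2.89 in hypoxia against 3.23 and 3.97 in normoxia. At Kdm3a, Kdm4a, Kdm6b, Tet2 and Tet3 the libraries of the groups overlapped. Without the peaks that cover the start of a neighbouring gene, the log2 change was -0.23 in place of -0.04 at Kdm4a and 0.36 in place of 0.08 at Kdm6b.

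**Figure D5:**
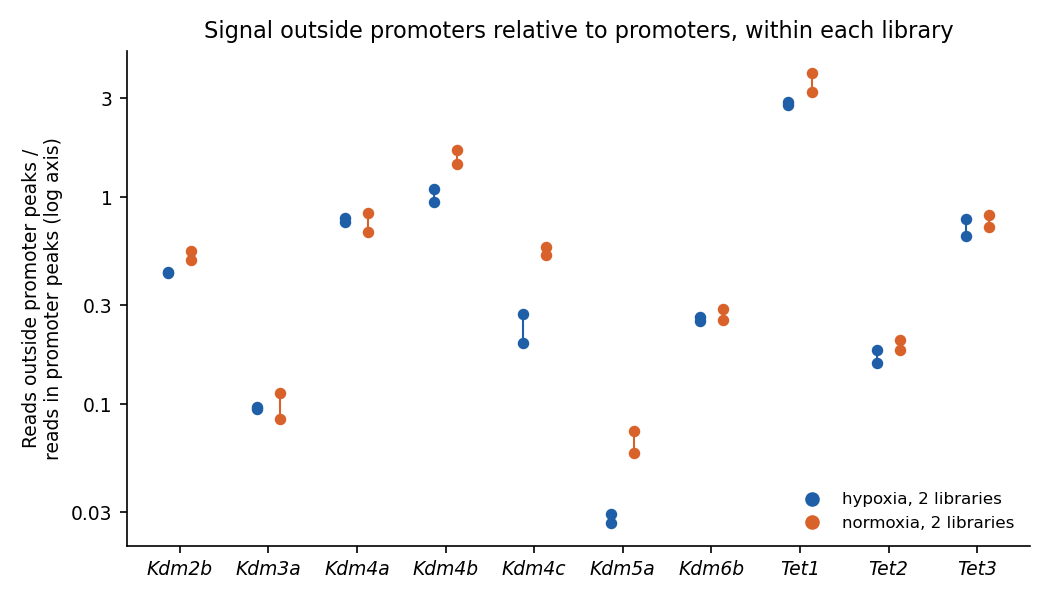
Reads in peaks outside promoters divided by reads in promoter peaks of the same gene (log axis), within each of 2 hypoxia and 2 normoxia libraries. The groups lie apart at Kdm2b, Kdm4b, Kdm4c, Kdm5a and Tet1 and overlap at the other 5 genes.

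Other genes of the same pathways were read for their promoter peaks alone. Of 24 promoter peaks of 16 further JmjC genes, 5 were called lower in normoxia and 0 higher, with a median log2 fold change of -0.32. The lowest p-values belonged to Kdm8 (185 and 187 against 89.6 and 88.1, FDR 0.00136 in limma), Riox2 (98.0 and 97.6 against 36.4 and 53.7, FDR 0.00363) and Kdm6a, the X-linked relative of Kdm6b (195 and 209.8 against 90.7 and 116, FDR 0.00500). Kdm8 and Riox2 are hydroxylases of the JmjC fold. The 19 peaks not called ranged from -1.62 to 0.67.

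Erasers that do not depend on a JmjC or TET domain were fewer. Of 4 promoter peaks of Kdm1a and Kdm1b, which use flavin, and of Tdg, a glycosylase that removes the products of TET oxidation, 0 were called in limma, and their fold changes ranged from -0.36 to 0.14. Of 28 promoter peaks of 20 genes, which are methyltransferases and their partner Uhrf1, 5 were called lower and 0 higher, with a median of -0.34. The lowest p-values belonged to a narrow peak at Nsd1 (16.6 and 17.0 against 1.50 and 3.67, FDR 0.000236 in limma), to Uhrf1, a cofactor of DNA maintenance methylation that lies next to Kdm4b on chromosome 17 (133 and 143 against 59.2 and 69.4, FDR 0.00139), and to Kmt2c, a writer of methylation at lysine 4 of histone H3 (303 and 291 against 133 and 175, FDR 0.00360). The 23 peaks not called ranged from -1.68 to 0.68. Both ends were weak peaks, a narrow one at Dnmt1 (2.83 and 2.38 against 0 and 0) and one at Ezh2 (8.14 and 8.84 against 8.25 and 12.7). The shares called lower, 20.8% of the JmjC and 17.9% of the methyltransferase promoter peaks, lay near the 16.7% of all promoter peaks.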

How the data were processed

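ATAC-seq libraries of MSCs were made in duplicate at each oxygen level, 4 in all. By the study's methods and processing notes, the authors aligned reads to mm10 (Bowtie2), removed duplicates (Picard) and called 1 peak set over both groups (chromstaR). The deposited values, named RPKM by the authors, are a signal per peak that is not divided by width. All were whole multiples of 1 step per library (relative tolerance 1e-06), equal to 10000000 over the library total, so whole reads could be recovered for 100% of values. The main test was limma 3.58.1 in R 4.3.3 (lmFit, eBayes with trend and robust, two-sided) on log2(signal + 1) after RLE scaling (factors 1.13 and 1.23 for hypoxia, 0.81 and 0.89 for normoxia), with Benjamini-Hochberg adjustment over 128055 peaks. edgeR 4.0.16 (quasi-likelihood) on the recovered reads was an alternative. Both were run on simulated reads in which no peaks, or a small set equally in each direction, changed. That setting lacked the group difference in reads in peaks and the trend of fold change with signal. It therefore cannot show how the tests behave under them. An exact permutation test of a single value could not go below 0.333 with 2 libraries per group and was not used.

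A peak held a median of 43 and 48 reads in the hypoxia libraries against 33 and 40 in the normoxia libraries. Promoters were taken from all protein-coding transcripts of GENCODE M21, and coordinates are mm10. Members and gene lists were chosen with earlier results of these data known. Named were each promoter peak of a member, the strongest and the called peaks outside promoters of each gene, the 2 peaks nearest outside the threshold, and up to 3 called promoter peaks of each further list by p-value. By the study's account sorted cells were split between the oxygen levels, but the labels do not say which libraries share a sort. Libraries of the same number had a correlation of deviations of 0.01 over all peaks, which cannot settle this. The main test did not pair libraries. Alternatives covered the scaling, pseudocount, filter, test, promoter definition, flanks and leaving out each library. The sum over the blood marker list is not reported here.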

Additional observations from a re-analysis of the deposited data

How the results depend on the processing

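Scaling mattered most. Of the 60 peaks, limma called 22 lower and 0 higher as deposited (11 promoter peaks and 11 others lower), 0 lower and 7 higher under equal totals, and 0 lower and 1 higher under both quantile normalization and cyclic loess. Of all 128055 peaks, 24.0% were lower and 0.391% higher as deposited, 0.842% and 6.87% under equal totals, 0.720% and 0.905% under quantile normalization, and 1.31% and 1.42% under cyclic loess. In these last 3 scalings 0 promoter peaks and 0 others were lower. The median log2 fold change of promoter peaks was -0.80 as deposited, -0.041 under equal totals, -0.024 under quantile normalization and 0.026 under cyclic loess, and that of peaks outside promoters -0.34, 0.40, 0.075 and 0.042. With a pseudocount of 0.1, 2 were lower (0 outside promoters) and 1 higher, against 3.35% and 1.20% of all peaks. Without trend and robust estimation 0 were called in either direction, at promoters and outside, as in the whole table, where 29293 peaks had an unadjusted p under 0.05. At an FDR under 0.05, 6 were lower (4 at promoters and 2 outside) and 7 higher. The share of all peaks at that threshold was not computed. edgeR called 5 lower and 4 higher with RLE factors, and 4 lower and 4 higher with TMM factors. The limma fit with the replicate block called 5 lower and 4 higher, although it is not known whether the numbers pair libraries. Of all peaks, edgeR called 5.70% lower and 2.54% higher with RLE and 5.13% and 2.70% with TMM factors, and the block fit 6.61% and 3.05%. Without flanks the median outside promoters was 0.23, and with the basic GENCODE set, chosen after seeing the data, which counts the Tet1 promoter peak and the Kdm2b peak at 122950301 as outside, 0.0499.

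When each library was left out in turn, the calls ranged from 0 to 5 lower and 0 to 1 higher, from 0 to 4 lower at promoters and 0 to 1 lower outside. The medians ranged from -0.40 to -0.22 at promoters and from -0.036 to 0.27 outside them, and all calls were lost without either hypoxia library. The remaining library of that group is then assumed to vary like the other group.

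Among the 27 named peaks with these settings, the sign changed only for peaks that were not called. As deposited, the Kdm2b promoter peak at 122950301 was at -0.42 and the Tet3 promoter peak at 83455201 at -0.14. Under equal totals, quantile normalization and cyclic loess, the Kdm3a promoter was at 0.016, 0.095 and 0.11, the Kdm4b promoter at 0.039, 0.12 and 0.15, the Kdm6b promoter at 0.060, 0.14 and 0.28, the Kdm6b peak at 69394301 at 0.094, 0.10 and 0.087, and the Tet3 peak at 83412001 at 0.24, 0.20 and 0.19. The Tet3 promoter peak at 83438501 was at 0.045 under quantile normalization and 0.043 under cyclic loess, the Kdm4a promoter at 0.026 under cyclic loess, and under equal totals the Kdm2b peak at 122993901 was at 0.025 and the Kdm3a peak at 71596001 at 0.15. Leaving out 1 library gave -0.13 to 0.22 at the Kdm2b peak at 122950301, -0.37 to 0.14 at the Kdm3a peak at 71596001 and -0.18 to 0.065 at the Tet3 peak at 83412001. The cause of these changes was not tested. Weak peaks are limited by depth, since the Kdm5a peak outside its promoter held as few as 14 reads.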
